A study of Homo sapiens with 18 samples.

Results

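The 10 genes described here encode plasma membrane and vesicular carriers of amino acids: SLC7A5, SLC3A2, SLC1A5, SLC1A3, SLC1A4, SLC7A1, SLC38A1, SLC38A2, SLC43A1 and SLC36A4. They were taken by name, with earlier results of these data known and, SLC7A5 apart, with no cut-off on their values. They were found by symbol in the DU145 table and by Ensembl identifier in the tables of the other lines. All 10 were present among the 22360 genes of the C4-2B table, the 25716 genes of the 22Rv1 table and the 37256 genes of the DU145 table, and all 10 passed the filter on low counts in each line. SLC7A5 was selected on its read count, as the most abundant gene of the 22Rv1 knockdown libraries, so its levels in 22Rv1 are given as a description and support nothing where they enter a count over the 10 genes.

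The study lowered EMD, the gene of emerin, an inner nuclear membrane protein that binds lamins, in 3 human prostate cancer cell lines and sequenced total RNA. The groups were EMD knockdown and control cells of C4-2B, a castration-resistant line derived from LNCaP, EMD knockdown and control cells of 22Rv1, a line from a relapsed prostate xenograft, and EMD knockdown and control cells of DU145, a line from a brain metastasis, with 3 libraries in each of the 6 groups. Per the labels' protocols, knockdown cells received siRNA against EMD and control cells a scrambled siRNA, delivered by lipid transfection, with the mix removed after 24 hours. The medium was DMEM for DU145 and RPMI-1640 for both other lines. The DU145 knockdown libraries carry the name shEMD, the usual mark of a hairpin vector, and the labels do not settle which reagent those cells received. How long after transfection cells were harvested is not stated. The libraries are called triplicates and nothing says that they were separate cultures, so the p-values measure the spread between these samples, which may be technical.

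Amino acids enter cells through carriers that divide the work by charge, size and driving force. SLC7A5 (LAT1) exchanges large neutral amino acids such as leucine for internal glutamine and reaches the membrane only with its heavy chain SLC3A2 (4F2hc, CD98). SLC1A5 and the SLC38 carriers bring in glutamine and small neutral amino acids with sodium, SLC7A1 brings in arginine and lysine, and SLC43A1 lets branched-chain amino acids through without sodium. Several of these genes are known targets of ATF4, the transcription factor of the amino acid shortage response, which binds with C/EBP partners at sites of the form TGATGNAA. MYC, another known regulator of SLC7A5 and SLC1A5, binds the E-box CACGTG.

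The RefSeq promoter windows of the members (GRCh38.p14, 250 bases before to 50 bases after each annotated start) are shown as a description. The 10 members had 20 such windows. TGATGNAA, searched on both strands, lay in 6 of the 20 windows, while 3.62% of all 35116 windows held it. These windows belonged to 6 of the 10 members, and no share over all genes was counted. Of the 4 members higher in all 3 lines, SLC1A4, SLC1A3 and SLC3A2 had a match and SLC7A5 had none. The other matches were in SLC38A1, higher after knockdown in 22Rv1 and DU145, and in SLC7A1 and SLC1A5, both lower in 22Rv1. The 6 matches are printed 5′ to 3′ in the strand on which the motif reads, 30 bases each, with the motif in capitals. Positions are relative to the annotated start and give the first base of the motif met along the gene. They were -7 in SLC1A4, -220 in SLC1A3, 37 in SLC3A2, -4 in SLC38A1, 7 in SLC7A1 and -97 in SLC1A5. The SLC1A4 and SLC3A2 matches were on the strand opposite to the gene, so the base given is the last of the motif as printed. SLC1A3, SLC1A5 and SLC3A2 had 3 windows each, of which only 1 held the motif. Of the 6 matches, only that of SLC7A1 lies at the 5′ end of the gene given below. The others, those of SLC1A4 and SLC38A1 included, lie at other annotated starts.
SLC1A4, chr2:64989381-64989410, minus strand: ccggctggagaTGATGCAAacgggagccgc
SLC1A3, chr5:36596357-36596386, plus strand: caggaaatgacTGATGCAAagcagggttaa
SLC3A2, chr11:62881719-62881748, minus strand: ggagcTGATGTAAggagtcctgcacattac
SLC38A1, chr12:46266502-46266531, minus strand: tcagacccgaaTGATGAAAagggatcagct
SLC7A1, chr13:29595663-29595692, minus strand: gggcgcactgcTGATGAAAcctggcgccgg
SLC1A5, chr19:46784893-46784922, minus strand: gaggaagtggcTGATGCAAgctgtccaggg

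CACGTG, which reads the same on both strands, lay in 3 of the 20 windows, against 7.26% of all windows. These windows belonged to 3 of the 10 members, and here too no share over all genes was counted. In SLC43A1 it began at position -112 and in SLC7A5 at position -130, and these 2 of the 3 matches are shown. The whole 250 bases before the SLC7A5 start follow, with the E-box in capitals. This stretch is 79.6% G and C and holds 1 E-box. Such matches describe letters and show no binding, and none of the libraries measured it. The ATF4 transcript itself was lower after knockdown in C4-2B and 22Rv1 and higher in DU145. Its log2 fold changes were -0.19 ± 0.04, -0.41 ± 0.04 and 0.30 ± 0.05 (SE) in those lines. The part of ATF4 in the levels of the members was not tested.
SLC43A1, chr11:57515796-57515825, minus strand: agcgggcgagtCACGTGcgcgtgaaactcg
SLC7A5, chr16:87869508-87869757, minus strand: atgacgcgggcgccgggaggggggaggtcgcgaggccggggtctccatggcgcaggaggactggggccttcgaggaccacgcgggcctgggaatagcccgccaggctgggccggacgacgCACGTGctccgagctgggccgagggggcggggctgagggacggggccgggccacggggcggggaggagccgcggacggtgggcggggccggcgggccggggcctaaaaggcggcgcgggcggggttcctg

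Library totals were 14722733 to 25112148 reads in C4-2B, 15602874 to 30788078 in 22Rv1 and 21024352 to 43311727 in DU145. Levels below are CPM, counts scaled to a common library size by TMM within a line, unless another scale is named. EMD averaged 8.29 ± 1.82 CPM in knockdown and 69.9 ± 4.53 CPM in control C4-2B cells, 19.5 ± 1.82 and 65.3 ± 4.38 CPM in knockdown and control 22Rv1 cells, and 4.80 ± 0.20 and 44.5 ± 3.54 CPM in knockdown and control DU145 cells (SD, n = 3 each). The log2 fold changes of EMD were -3.07 ± 0.11, -1.73 ± 0.07 and -3.21 ± 0.08 (SE) in C4-2B, 22Rv1 and DU145. In such bulk RNA, fewer cells of a kind and less RNA per cell cannot be told apart. KLK3, a marker of luminal prostate cells, averaged 950.7 ± 42.8 CPM in knockdown and 1509 ± 11.0 CPM in control C4-2B cells, 17.7 ± 0.45 CPM in knockdown and 20.03 ± 1.76 CPM in control 22Rv1 cells, and 0.466 ± 0.28 CPM in knockdown and 0.528 ± 0.20 CPM in control DU145 cells. The 8 blood cell markers summed to 28.8 to 31.3 CPM in knockdown and 94.5 to 95.4 CPM in control DU145 cells, mostly CD68, and CD3E had no reads in knockdown DU145 cells. In the other lines the sums were at most 16.2 CPM, over the 5 of 8 blood cell markers listed in 22Rv1 and the 3 of 8 listed in C4-2B. The fibroblast and endothelial markers, of which 7 of 9 were listed in 22Rv1, 5 of 9 in C4-2B and 9 of 9 in DU145, summed to 6.04 to 8.12 CPM in knockdown and 23.5 to 27.7 CPM in control 22Rv1 cells, to 46.3 to 51.7 CPM in knockdown and 49.8 to 53.9 CPM in control C4-2B cells and to 8.52 to 10.3 CPM in knockdown and 4.47 to 7.01 CPM in control DU145 cells. The mitochondrial share of reads was 4.28% to 4.89% in knockdown and 5.91% to 6.38% in control C4-2B cells, 1.45% to 1.54% in knockdown and 0.964% to 1.20% in control 22Rv1 cells, and 7.11% to 7.35% in knockdown and 8.94% to 9.12% in control DU145 cells. The part of these shifts in the results below was not tested.

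SLC7A5, the light chain that carries leucine, was higher after EMD knockdown in every line (ENSG00000103257, chromosome 16, 87830023 to 87869488, minus strand). In C4-2B it stood at 526.4, 536.1 and 528.5 CPM in knockdown cells, against 473.8, 495.1 and 486.6 CPM in control cells. The libraries did not overlap, the log2 fold change was 0.13 ± 0.04 (SE) and the gene rose past the threshold, an adjusted p under 0.05 in edgeR's quasi-likelihood test. In DU145 it stood at 512.6, 524.6 and 453.6 CPM in knockdown cells, against 316.8, 360.5 and 348.4 CPM in control cells, a log2 fold change of 0.54 ± 0.06. Again every knockdown library lay above every control library, and the gene rose. In 22Rv1 the level was of another order: 7869, 7773 and 7857 CPM in knockdown cells, against 6664, 6642 and 6059 CPM in control cells, a log2 fold change of 0.28 ± 0.03. The 3 knockdown values lay above all 3 control values.

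SLC7A5 took more reads than any other gene in the 22Rv1 knockdown libraries. They held 194089, 127061 and 133503 reads of SLC7A5 and 184182, 118735 and 125982 reads of EEF1A1, the translation elongation factor that came next. In the 22Rv1 control libraries the order of these genes was the other way round, with 194730, 106307 and 192218 reads of SLC7A5 and 255556, 142816 and 285269 reads of EEF1A1. The ratio of SLC7A5 to EEF1A1 reads was thus 1.05 to 1.07 in knockdown and 0.674 to 0.762 in control 22Rv1 cells. Counted per kilobase of merged exons, SLC7A5 ranked 7 to 10 in knockdown and 4 to 8 in control 22Rv1 libraries. By reads it ranked 202 to 213 in knockdown and 226 to 251 in control C4-2B cells, and 222 to 262 in knockdown and 398 to 453 in control DU145 cells. The near-identical copies SLC7A5P1 and SLC7A5P2 held at most 38 reads in any library where they were listed, and counting could split reads between them and SLC7A5. The antisense gene AC126696.2, which shares 271 exonic bases with SLC7A5, held at most 3 reads in DU145.

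SLC3A2, the heavy chain that brings SLC7A5 and its relatives to the surface, rose in all 3 lines (ENSG00000168003, chromosome 11, 62856102 to 62888875, plus strand). Levels in C4-2B were 685.1, 637.5 and 664.0 CPM in knockdown cells, against 433.3, 428.0 and 434.7 CPM in control cells, a log2 fold change of 0.62 ± 0.04. In 22Rv1 it stood at 1623, 1592 and 1578 CPM in knockdown cells, against 1149, 1183 and 1133 CPM in control cells, a log2 fold change of 0.47 ± 0.03. Levels in DU145 were 213.4, 226.2 and 212.4 CPM in knockdown cells, against 134.2, 137.0 and 137.1 CPM in control cells, a log2 fold change of 0.67 ± 0.05. In each line the knockdown and control libraries were wide apart relative to the spread within a group.

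The balance of light to heavy chain transcripts was lower after knockdown in C4-2B and 22Rv1. The log2 ratio of SLC7A5 to SLC3A2 CPM was -0.38, -0.25 and -0.33 in knockdown and 0.13, 0.21 and 0.16 in control C4-2B cells. It was 2.28, 2.29 and 2.32 in knockdown and 2.54, 2.49 and 2.42 in control 22Rv1 cells. Both of these lines had knockdown ratios below all control ratios, with mean differences of -0.49 and -0.19. In DU145 the ratios were 1.26, 1.21 and 1.10 in knockdown and 1.24, 1.40 and 1.35 in control cells, and the groups overlapped. Per kilobase of exon, SLC3A2 averaged 126.4 ± 4.25 CPM per kb and SLC7A5 110.5 ± 1.41 CPM per kb in knockdown C4-2B cells, while SLC3A2 averaged 82.3 ± 0.67 CPM per kb and SLC7A5 100.9 ± 2.31 CPM per kb in control C4-2B cells (SD, n = 3). The order of the pair was thus opposite in the knockdown and control groups of that line. All of these values describe transcripts and not assembled carriers.

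**Figure D1:**
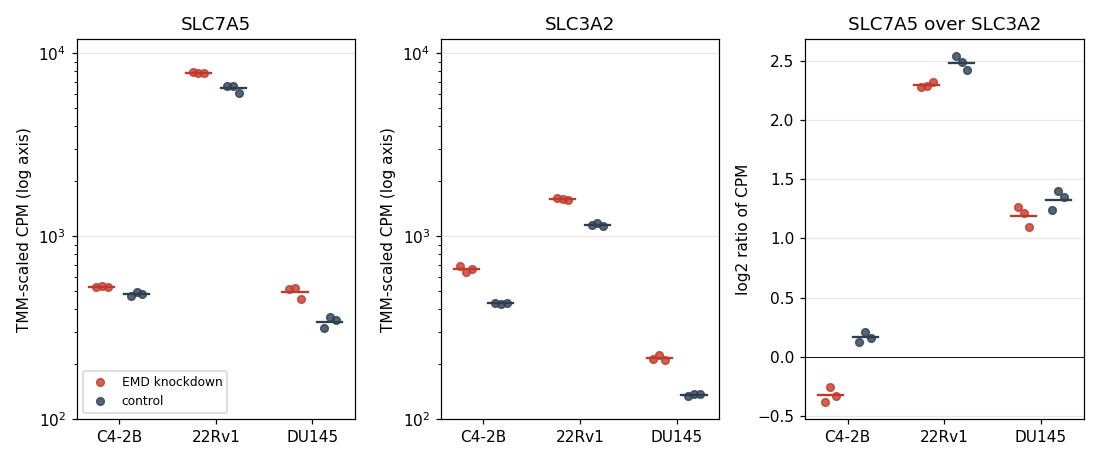
TMM-scaled CPM of SLC7A5 and SLC3A2 on log axes, and the log2 ratio of their CPM, in each line, with one point per library and a bar at the mean of 3, EMD knockdown left of control. SLC3A2 knockdown libraries lie above control libraries in every line, and the ratio is lower in knockdown than in control libraries of C4-2B and 22Rv1 and overlaps in DU145.

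Other light chains that pair with SLC3A2 moved in different directions. SLC7A11, the cystine and glutamate exchanger, stood at 130.0, 135.3 and 140.1 CPM in knockdown and 59.5, 65.5 and 64.7 CPM in control DU145 cells, and rose with a log2 fold change of 1.09 ± 0.05. It fell in 22Rv1, with 22.5, 26.5 and 26.4 CPM in knockdown and 48.9, 42.6 and 46.9 CPM in control cells, a log2 fold change of -0.89 ± 0.07. It fell as well in C4-2B, at 254.0 to 277.7 CPM in knockdown and 324.7 to 342.6 CPM in control cells. SLC7A8 (LAT2), a light chain for neutral amino acids, fell in 22Rv1 to 4.83 ± 0.71 CPM in knockdown cells, against 26.8 ± 0.89 CPM in control cells, a log2 fold change of -2.49 ± 0.11. In C4-2B its change of -0.18 ± 0.07 passed narrowly (adjusted p = 0.0496) with overlapping libraries, and the call was lost in 9 of 13 alternatives, among them those without control 1, without control 3, without knockdown 1 and without knockdown 3. In DU145 SLC7A8 averaged 0.519 ± 0.088 CPM in knockdown and 0.512 ± 0.15 CPM in control cells.

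SLC7A6, a light chain that exchanges cationic for neutral amino acids, rose in 22Rv1 (37.6 ± 4.08 CPM in knockdown and 31.4 ± 2.52 CPM in control cells) and fell in DU145 (72.5 ± 3.55 CPM in knockdown and 82.1 ± 4.84 CPM in control cells). The 22Rv1 call was lost without knockdown 3 (adjusted p = 0.0933), with library totals (adjusted p = 0.0667) and with offsets that follow abundance (adjusted p = 0.0543). The DU145 call was lost without control 3 (adjusted p = 0.117) or knockdown 1 (adjusted p = 0.0866), and in the fit of all 18 libraries (adjusted p = 0.0584). In C4-2B it averaged 44.1 ± 2.24 CPM in knockdown and 43.3 ± 5.29 CPM in control cells and did not pass. SLC7A7 and SLC7A10, low to begin with, fell in 22Rv1, where SLC7A7 held 7 reads in knockdown and 102 reads in control cells and SLC7A10 held 4 reads in knockdown and 151 reads in control cells, each over 3 libraries. Neither passed in the other lines, where SLC7A10 was not tested and SLC7A7 was tested in DU145 alone.

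SLC1A3 and SLC1A4 of the glutamate and neutral amino acid carrier family rose in all 3 lines. SLC1A3 (GLAST, EAAT1), which takes up glutamate and aspartate, was a low transcript (ENSG00000079215, chromosome 5, 36606355 to 36688334, plus strand). Its C4-2B values were 5.12, 5.31 and 5.17 CPM in knockdown and 3.57, 2.73 and 2.63 CPM in control cells, a log2 fold change of 0.82 ± 0.22. Levels in 22Rv1 were 16.3, 16.5 and 15.0 CPM in knockdown and 8.83, 11.1 and 8.67 CPM in control cells, a log2 fold change of 0.77 ± 0.11. In all 3 lines the knockdown libraries lay above every control library, on 52 to 95 reads a C4-2B library and 177 to 403 reads a 22Rv1 library. Its DU145 values were 2.99, 3.19 and 3.22 CPM in knockdown and 1.81, 1.17 and 1.10 CPM in control cells, a log2 fold change of 1.25 ± 0.21 that rested on 37 to 115 reads a library.

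SLC1A4 (ASCT1), an exchanger of alanine, serine and cysteine, had smaller fold changes than SLC1A3 (ENSG00000115902, chromosome 2, 64988477 to 65023865, plus strand). Its 22Rv1 values were 41.5, 42.6 and 43.9 CPM in knockdown and 32.9, 30.7 and 28.1 CPM in control cells, a log2 fold change of 0.48 ± 0.07. In DU145 it stood at 10.4, 12.6 and 11.0 CPM in knockdown and 7.82, 9.08 and 7.95 CPM in control cells, a log2 fold change of 0.44 ± 0.09. The groups were apart in both lines. In C4-2B it stood at 37.3, 40.8 and 36.8 CPM in knockdown and 34.6, 32.4 and 31.3 CPM in control cells, a log2 fold change of 0.23 ± 0.08. That C4-2B call was lost without control 3 (adjusted p = 0.0909) and without knockdown 2 (adjusted p = 0.108).

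SLC1A5 (ASCT2), the glutamine carrier of the same family, fell in 22Rv1 and rose in DU145 (ENSG00000105281, chromosome 19, 46774883 to 46788594, minus strand). In 22Rv1 it fell to 170.6, 160.6 and 166.8 CPM in knockdown cells, against 281.4, 292.5 and 254.1 CPM in control cells, a log2 fold change of -0.73 ± 0.05. In DU145 it rose, with 179.2, 186.9 and 178.7 CPM in knockdown and 159.5, 169.5 and 163.4 CPM in control cells, a log2 fold change of 0.15 ± 0.05 (adjusted p = 0.0118). The DU145 rise was small and was lost without control 1 (adjusted p = 0.0651), without knockdown 2 (adjusted p = 0.201), with DESeq2 size factors (adjusted p = 0.0547) and with no filter (adjusted p = 0.0525). Levels in C4-2B were 399.6, 380.7 and 376.8 CPM in knockdown and 396.1, 413.5 and 399.0 CPM in control cells, the groups overlapped and it did not pass (adjusted p = 0.187). Without knockdown 1 the C4-2B change was -0.09 ± 0.04 (adjusted p = 0.05, just inside the threshold). An antisense gene, AC008622.2, covers 23.4% of the merged exons of SLC1A5 and held at most 25 reads a library. The strandedness of counting is not stated, so reads of the pair cannot be told apart.

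SLC7A1 (CAT1), the main arginine and lysine carrier, fell in 22Rv1 and DU145 (ENSG00000139514, chromosome 13, 29509410 to 29595688, minus strand). In 22Rv1 it stood at 150.3, 145.1 and 149.5 CPM in knockdown and 182.2, 170.5 and 164.4 CPM in control cells, a log2 fold change of -0.22 ± 0.04. Levels in DU145 were 187.2, 189.2 and 189.0 CPM in knockdown and 199.1, 217.1 and 214.7 CPM in control cells, a log2 fold change of -0.16 ± 0.05 (adjusted p = 0.0066). The knockdown libraries lay below all control libraries in both lines, but the DU145 call was lost without control 3 (adjusted p = 0.115), knockdown 1 (adjusted p = 0.0912) or knockdown 2 (adjusted p = 0.0659). In C4-2B, where its level was highest, it stood at 903.4, 954.0 and 953.4 CPM in knockdown and 882.7, 900.4 and 903.8 CPM in control cells, and did not pass (adjusted p = 0.149). Scaling by library totals (adjusted p = 0.0086) or leaving out knockdown 1 (adjusted p = 0.0245) made it a rise.

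SLC38A1 and SLC38A2 (SNAT1 and SNAT2) are sodium-coupled carriers of glutamine and other small neutral amino acids, and SLC38A2 is known to be induced when amino acids run short. Both rose in 22Rv1 and DU145 and neither passed in C4-2B. SLC38A1 (ENSG00000111371, chromosome 12, 46183063 to 46270017, minus strand) stood at 446.1, 443.4 and 456.1 CPM in knockdown and 327.6, 302.4 and 318.2 CPM in control 22Rv1 cells, a log2 fold change of 0.50 ± 0.04. It stood at 422.1, 428.6 and 429.6 CPM in knockdown and 335.6, 362.9 and 365.7 CPM in control DU145 cells, a log2 fold change of 0.27 ± 0.05. The groups were apart in both lines. Its C4-2B values were 618.0, 631.1 and 642.9 CPM in knockdown and 647.4, 653.8 and 661.2 CPM in control cells, lower in every knockdown library by a margin that did not pass (adjusted p = 0.242).

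SLC38A2 also lies on chromosome 12 (ENSG00000134294, 46358189 to 46372867, minus strand). Its DU145 values were 422.7, 454.4 and 446.0 CPM in knockdown and 282.6, 289.5 and 292.4 CPM in control cells, a log2 fold change of 0.61 ± 0.05. Levels in 22Rv1 were 1521, 1501 and 1548 CPM in knockdown and 1403, 1349 and 1400 CPM in control cells, a log2 fold change of 0.14 ± 0.03. The 22Rv1 groups did not overlap, yet the call was lost with library totals (adjusted p = 0.0857) and with offsets that follow abundance (adjusted p = 0.0634). In C4-2B it stood at 482.6, 490.8 and 487.7 CPM in knockdown and 516.6, 507.4 and 508.8 CPM in control cells and did not pass (adjusted p = 0.119), though every knockdown library was below every control library.

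SLC43A1 (LAT3), a facilitator of branched-chain and other neutral amino acids known also as a gene overexpressed in prostate cancer, had the widest range of fold changes of the 10 genes (ENSG00000149150, chromosome 11, 57484534 to 57515786, minus strand). In 22Rv1 it fell to 10.5, 8.63 and 10.2 CPM in knockdown cells, against 42.2, 43.0 and 41.0 CPM in control cells, a log2 fold change of -2.10 ± 0.08. In DU145, where it was low, it rose with 4.12, 3.47 and 3.81 CPM in knockdown and 1.19, 1.08 and 1.57 CPM in control cells, a log2 fold change of 1.57 ± 0.19 on 25 to 150 reads a library. The libraries were apart in both lines, in opposite directions. In C4-2B, where it was abundant, it stood at 268.4, 269.8 and 275.3 CPM in knockdown and 243.5, 258.1 and 244.9 CPM in control cells, a rise of 0.12 ± 0.04 on the log2 scale (adjusted p = 0.0114). The C4-2B call was lost without control 1 (adjusted p = 0.0679) and without control 3 (adjusted p = 0.0782).

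SLC36A4 (PAT4), a high-affinity carrier of proline and tryptophan, fell in C4-2B and DU145 (ENSG00000180773, chromosome 11, 93144171 to 93197964, minus strand). Levels in C4-2B were 6.14, 7.10 and 6.08 CPM in knockdown and 10.1, 9.64 and 10.7 CPM in control cells, a log2 fold change of -0.65 ± 0.15. In DU145 it stood at 48.1, 50.2 and 44.3 CPM in knockdown and 53.1, 53.2 and 53.3 CPM in control cells, a log2 fold change of -0.17 ± 0.05 (adjusted p = 0.0129). The DU145 call was lost without control 3 (adjusted p = 0.109), knockdown 1 (adjusted p = 0.0783) or knockdown 3 (adjusted p = 0.213), and in the fit of all 18 libraries (adjusted p = 0.0567). Its 22Rv1 values were 1.34, 1.22 and 1.35 CPM in knockdown and 0.958, 1.06 and 0.725 CPM in control cells, higher in each knockdown library but not past the threshold (adjusted p = 0.183), on 17 to 33 reads a library. The 22Rv1 change passed in the fit of all 18 libraries (adjusted p = 0.0496), and with offsets that follow abundance it was 1.02 ± 0.35 (adjusted p = 0.0147).

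**Figure D2:**
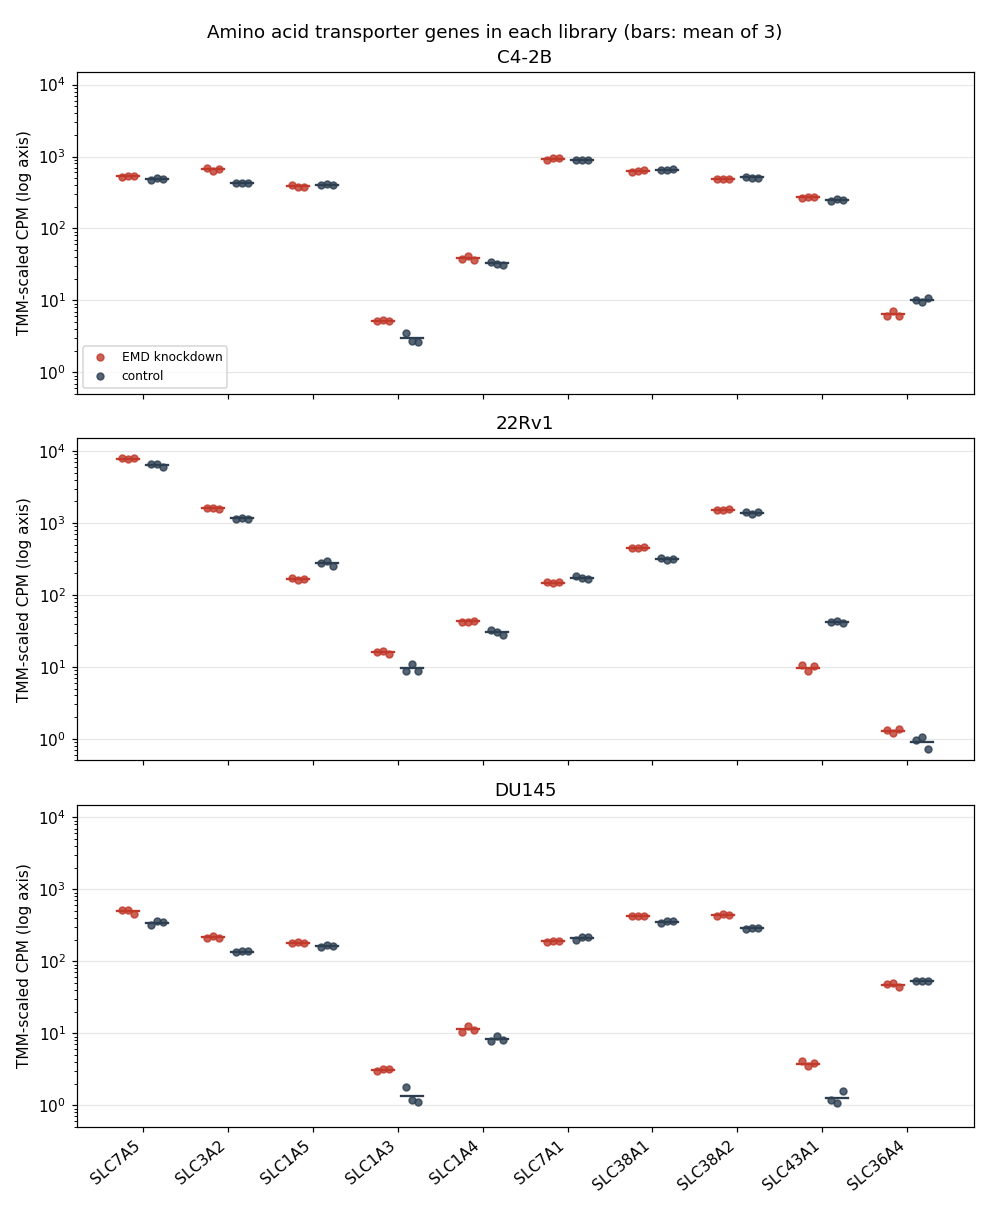
TMM-scaled CPM of the 10 transporter genes on log axes, with one panel per line, one point per library and a bar at the mean of 3, EMD knockdown left of control. SLC7A5 stands near 7833 CPM in knockdown and 6455 CPM in control 22Rv1 cells, and SLC43A1 falls in 22Rv1 and rises in DU145.

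Read as a group, 5 members rose, 1 fell and 4 did not pass in C4-2B, where 41.7% of all tested genes passed, 19.4% as rises and 22.3% as falls. In 22Rv1, 6 stood higher past the threshold, SLC7A5 among them, 3 fell and 1 did not pass, against 67.8% of all tested genes, 33.5% as rises and 34.3% as falls. In DU145, 8 rose and 2 fell, against 47.6% of all tested genes, 24.1% as rises and 23.6% as falls. The median log2 fold change of the members was 0.09 in C4-2B, 0.37 in 22Rv1 and 0.49 in DU145, beside 0.013, -0.004 and 0.012 over all tested genes of those lines. Because the members were chosen with results of these data known, nothing is read from these counts or medians. In C4-2B the knockdown libraries stood wholly above the control libraries for 5 members and wholly below for 3, beside 24.5% and 26.0% of all tested genes (50.5% together). In 22Rv1 they stood wholly above for 7 and below for 3, beside 35.1% and 35.9% (71.0% together), and in DU145 above for 8 and below for 2, beside 28.2% and 26.6% (54.8% together).

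SLC7A5, SLC3A2, SLC1A3 and SLC1A4 were higher past the threshold in all 3 lines, 4 of 10 members, while 2.12% of the 13078 genes tested in all 3 lines rose in each. SLC1A4 leaves that group without C4-2B control 3 or without C4-2B knockdown 2. No member fell in all 3 lines, beside 2.32% of those genes. SLC1A5 and SLC43A1 rose in one line and fell in another.

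**Figure D3:**
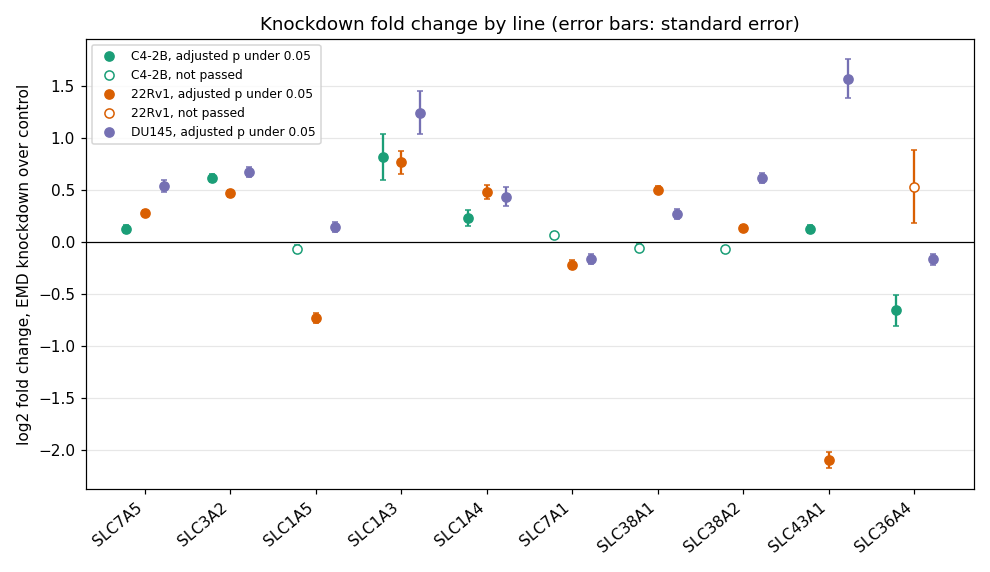
Log2 fold change of EMD knockdown over control for each transporter gene and line, with standard errors; filled points have an adjusted p under 0.05 and open points do not. SLC3A2 lies between 0.47 and 0.67 in all 3 lines, whereas SLC43A1 is at -2.10 in 22Rv1 and 1.57 in DU145.

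The knockdown fold changes were compared between lines in one fit of all 18 libraries. Line coincides with table and batch label and, for DU145, with medium and possibly with reagent, so these cannot be told apart. The difference passed for 7 of 10 members between C4-2B and 22Rv1, for 7 between C4-2B and DU145 and for 8 between 22Rv1 and DU145, where 56.1%, 45.7% and 55.6% of all 17152 tested genes passed. SLC43A1 differed most: its log2 fold change in 22Rv1 less that in DU145 was -3.73 ± 0.15, and in C4-2B less that in 22Rv1 it was 2.27 ± 0.09. SLC1A5 differed by 0.71 ± 0.06 between C4-2B and 22Rv1 and by -0.94 ± 0.06 between 22Rv1 and DU145. SLC38A2, whose DU145 response was the strongest, differed by -0.70 ± 0.05 between C4-2B and DU145 and by -0.54 ± 0.05 between 22Rv1 and DU145.

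Among members that were higher in all 3 lines, several differences in response did not pass. The SLC3A2 difference between C4-2B and DU145 was -0.07 ± 0.05 and did not pass (adjusted p = 0.249), while C4-2B less 22Rv1 gave 0.20 ± 0.05. The SLC1A4 differences of -0.20 ± 0.11, -0.22 ± 0.12 and -0.01 ± 0.11 for C4-2B less 22Rv1, C4-2B less DU145 and 22Rv1 less DU145 did not pass. Without 22Rv1 control 1 the first of these passed (adjusted p = 0.0362), and without DU145 control 2 the second did (adjusted p = 0.0436). The SLC1A3 difference between 22Rv1 and DU145, -0.56 ± 0.23 (adjusted p = 0.0406), was lost in 9 of 12 fits that left out 1 library, all but those without 22Rv1 control 1, 22Rv1 control 3 or DU145 control 1. SLC1A3 in C4-2B less DU145 passed only without DU145 control 1 (adjusted p = 0.0446).

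Among control cells, the level of each member was compared between lines in the same fit. The level differed for 9 of 10 members between C4-2B and 22Rv1 and for all 10 in each of the other pairs, where 78.4%, 83.1% and 83.8% of all tested genes differed. SLC43A1 was highest in C4-2B, with a log2 difference of 7.47 ± 0.08 over DU145 and 2.55 ± 0.05 over 22Rv1. SLC36A4 was highest in DU145, with -6.01 ± 0.11 for 22Rv1 over DU145 and -2.52 ± 0.08 for C4-2B over DU145. SLC7A1 was 2.36 ± 0.04 higher on the log2 scale in C4-2B than in 22Rv1, and SLC38A2 2.15 ± 0.04 higher in 22Rv1 than in DU145. The exception was SLC1A4 in C4-2B over 22Rv1, at 0.08 ± 0.08 (adjusted p = 0.34).

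Levels of different genes were set side by side per kilobase, as jointly scaled CPM divided by merged exon length. In control C4-2B cells 7 members lay close together, from SLC1A5 at 119.3 ± 2.81 CPM per kb through SLC7A1, SLC7A5, SLC3A2, SLC38A2 and SLC43A1 to SLC38A1 at 64.5 ± 0.73 CPM per kb. In control 22Rv1 cells SLC7A5 stood alone at 1358 ± 63.8 CPM per kb, followed by SLC3A2 at 222.7 ± 2.42 CPM per kb and SLC38A2 at 209.3 ± 6.82 CPM per kb (SD, n = 3). In control DU145 cells SLC7A5 led at 77.9 ± 5.98 CPM per kb, and SLC7A1 and SLC3A2 overlapped at 29.6 ± 1.69 and 28.4 ± 0.65 CPM per kb. After knockdown SLC3A2 was the highest member of C4-2B, overlapping SLC7A1 at 120.4 ± 3.85 CPM per kb, and SLC7A1 overlapped SLC1A5 at 114.4 ± 3.61 CPM per kb.

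Across the 6 groups, SLC7A5 per kb was ordered 22Rv1 knockdown, 22Rv1 control, DU145 knockdown, C4-2B knockdown, C4-2B control and DU145 control. The DU145 and C4-2B knockdown groups overlapped at 114.4 ± 7.30 and 110.5 ± 1.41 CPM per kb. SLC3A2 was ordered 22Rv1 knockdown, 22Rv1 control, C4-2B knockdown, C4-2B control, DU145 knockdown and DU145 control, with no overlap between neighbours. SLC38A2 was highest in 22Rv1 knockdown at 223.2 ± 4.36 CPM per kb, and DU145 knockdown reached 73.0 ± 2.13 CPM per kb, which overlapped C4-2B knockdown at 72.9 ± 0.80 CPM per kb. SLC43A1 was ordered C4-2B knockdown, C4-2B control, 22Rv1 control, 22Rv1 knockdown, DU145 knockdown and DU145 control, from 75.9 ± 0.89 to 0.391 ± 0.080 CPM per kb with no overlap. SLC36A4 ran from 5.94 ± 0.07 CPM per kb in DU145 control cells to 0.0942 ± 0.017 CPM per kb in 22Rv1 control cells. In SLC1A5 the 22Rv1 knockdown group was the lowest of the 6, at 48.2 ± 1.90 CPM per kb.

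The genes whose log2 CPM followed SLC7A5 most closely over the 18 libraries were CSRNP2 (Pearson r = 0.997), HSPB6 (0.996), SLC25A39 (0.994), MDK (0.994) and GPRIN1 (0.993), of 17151 other genes. The libraries fall into 3 lines and SLC7A5 is far higher in 22Rv1, so r mostly follows the line. Of the members, SLC38A2 came nearest with r = 0.98, then SLC1A3 with 0.892 and SLC3A2 with 0.858, while SLC36A4 was at -0.876.

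The other amino acid genes were counted from lists of 35 further transporters, 25 enzymes of amino acid synthesis, 24 genes of amino acid sensing and 20 cytosolic tRNA synthetases. Their counts stand beside all tested genes, of which 19.4% rose and 22.3% fell in C4-2B, 33.5% rose and 34.3% fell in 22Rv1, and 24.1% rose and 23.6% fell in DU145, and nothing particular to a list is read from them. Of the further transporters, 3 rose, 7 fell and 10 did not pass in C4-2B (median -0.02), 7 rose, 13 fell and 4 did not pass in 22Rv1 (median -0.65), and 8 rose, 5 fell and 13 did not pass in DU145 (median 0.06). In 22Rv1 the fold change moved with the level: the median over all tested genes was -0.48 under 2 CPM and 0.15 from 100 CPM upward. There 5 of the 13 transporters that fell were under 10 CPM, as were 7 of the 24 tested, and the part of this trend in the count was not tested. CTNS, the lysosomal cystine exporter, rose in 22Rv1 to 21.9 ± 2.25 CPM in knockdown cells, against 8.26 ± 1.15 CPM in control cells. It also rose in C4-2B, with 36.7 ± 3.50 CPM in knockdown and 29.1 ± 3.10 CPM in control cells. In DU145 it rose by 0.21 ± 0.05 on the log2 scale. SLC36A1, a proton-coupled carrier of lysosome and surface, rose in 22Rv1 by 0.85 ± 0.09 on the log2 scale and fell in C4-2B (-0.44 ± 0.08) and DU145 (-0.24 ± 0.07), the last call being lost without control 3 (adjusted p = 0.129).

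SLC38A4, a relative of SLC38A2, rose in DU145 with 1.90 ± 0.12 CPM in knockdown and 0.276 ± 0.093 CPM in control cells, and fell in C4-2B with 2.47 ± 0.42 CPM in knockdown and 5.76 ± 0.57 CPM in control cells. Among relatives of SLC1A3, SLC1A2, the main glial glutamate carrier, fell in 22Rv1 (1.95 ± 0.67 CPM in knockdown and 12.0 ± 1.64 CPM in control cells), and SLC1A1, the epithelial and neuronal one, rose in DU145 (10.1 ± 0.51 CPM in knockdown and 3.53 ± 0.42 CPM in control cells). SLC38A7, a lysosomal glutamine carrier, rose in C4-2B by 0.36 ± 0.08 on the log2 scale, and also in 22Rv1 (0.702 ± 0.094) and DU145 (0.225 ± 0.055). SLC15A4, the lysosomal histidine and peptide carrier, fell in DU145 (-0.49 ± 0.06).

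Of the synthesis genes, 6 rose, 12 fell and 7 did not pass in C4-2B (median -0.14), 6 rose, 15 fell and 4 did not pass in 22Rv1 (median -0.25), and 14 rose, 6 fell and 5 did not pass in DU145 (median 0.14). Without DU145 knockdown 2, 13 passed in place of 20. ASS1, which makes argininosuccinate for arginine synthesis, was the gene that moved furthest: it rose in C4-2B (0.54 ± 0.05) and DU145 (1.44 ± 0.08) and fell in 22Rv1 to 7.51 ± 1.31 CPM in knockdown cells, against 50.3 ± 1.31 CPM in control cells. ASL, the next enzyme of that route, fell in DU145 (-0.79 ± 0.05). SHMT1, a serine and glycine enzyme, fell in C4-2B (-0.76 ± 0.06), and PYCR3, a proline enzyme, rose in 22Rv1 (0.78 ± 0.05).

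Sensing genes were evenly divided, with 7 up and 8 down in C4-2B (median -0.04), 10 up and 10 down in 22Rv1 (median 0.08) and 7 up and 8 down in DU145 (median 0.04), and without control 1 only 9 passed in C4-2B in place of 15. SESN3, a sestrin that restrains mTORC1, fell in all 3 lines: to 111.2 ± 4.08 CPM in knockdown C4-2B cells, against 202.3 ± 9.67 CPM in control cells, to 36.6 ± 1.44 against 196.3 ± 13.0 CPM in knockdown and control 22Rv1 cells, and to 19.6 ± 0.46 against 37.9 ± 2.45 CPM in knockdown and control DU145 cells. SESN2, the leucine-binding sestrin, rose in C4-2B (0.60 ± 0.05) and DU145 (0.29 ± 0.08) and fell in 22Rv1 (-0.93 ± 0.06). CASTOR1, the arginine sensor, rose in DU145 (1.75 ± 0.16) and fell in C4-2B (-0.33 ± 0.09) and 22Rv1 (-1.645 ± 0.098).

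The tRNA synthetases rose in 5 cases, fell in 10 and did not pass in 5 in C4-2B (median -0.10), with 8 up, 8 down and 4 not passed in 22Rv1 (median 0.07) and 11 up, 6 down and 3 not passed in DU145 (median 0.17). Without DU145 knockdown 2, 10 passed in place of 17. SARS1 rose in C4-2B (0.24 ± 0.04) and QARS1 fell there (-0.53 ± 0.05). HARS1 rose in 22Rv1 (0.50 ± 0.05) and AARS1 fell there (-0.68 ± 0.03). CARS1 rose in DU145 (0.55 ± 0.05) and LARS1 fell there (-0.24 ± 0.05). The medians of the 4 lists stood beside 0.013, -0.004 and 0.012 over all tested genes of C4-2B, 22Rv1 and DU145.

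**Figure D4:**
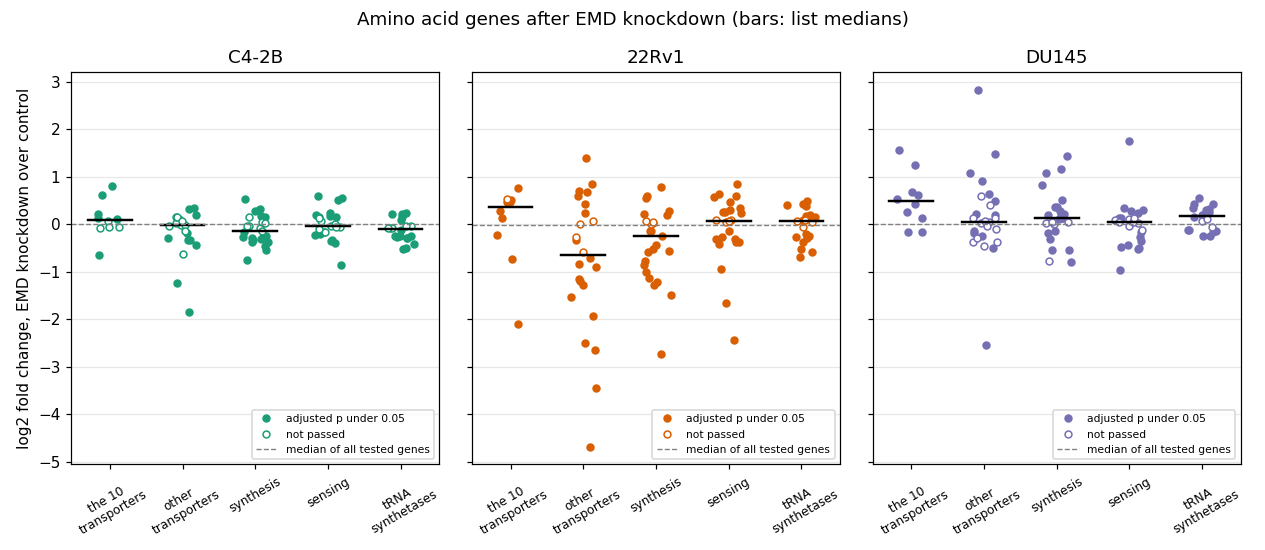
Log2 fold change of EMD knockdown over control for the 10 transporters and the 4 lists of other amino acid genes in each line; each point is a gene, filled where the adjusted p is under 0.05, bars are list medians and the dashed line is the median of all tested genes. In 22Rv1 the further transporters have a median of -0.65, and in DU145 the synthesis genes and tRNA synthetases have medians of 0.14 and 0.17.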

How the data were processed

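RNA-seq libraries of C4-2B, 22Rv1 and DU145 cells (18 in all) were analysed from gene tables. The deposited values are expected counts, all whole numbers. The submitters' processing notes name STAR, RSEM 1.3.1 and the GRCh38 build; the annotation release, strandedness and rounding are not given in the sources used here. The DU145 table also held 92 spike-in entries and 30 second copies of pseudoautosomal genes, which were left out. The C4-2B and 22Rv1 tables list fewer genes, so a gene missing there was not tested.

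Each line was fitted alone with edgeR 4.0.16 (R 4.3.3): filterByExpr (minimum count 10, minimum total 15), TMM scaling, robust quasi-likelihood F test, knockdown over control, Benjamini-Hochberg adjustment over all genes tested and a threshold of 0.05. Standard errors are the log2 fold change divided by the root of F. Differences between lines came from one fit of 18 libraries on the 18445 genes in all 3 tables. Lengths and loci are from GENCODE 29 and promoters from RefSeq. Scripts were tested on simulated data. Replicates of a group differed by more than sampling noise (chi-square per degree of freedom 2.28 to 8.7). Library totals set the counting error, to which replicate spread adds. The members and lists were chosen with earlier results of these data known. Named beyond the members were EMD, the partners of SLC3A2, the 2 largest rises and falls among other transporters and the largest rise and fall of each other list per line (past the threshold, mean of at least 1 CPM), and the 5 genes most like SLC7A5; a few items that these rules select are not reported here. Alternatives covered scaling by DESeq2 1.42.0 size factors, library totals or offsets that follow abundance, no filter, the DESeq2 test, the joint fit, a replicate block and leaving out each library.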

Additional observations from a re-analysis of the deposited data

Results flagged for a closer look

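The knockdown response of 9 members differed between some lines by the test of the difference itself, on the log2 scale with its SE, as first line less second. For C4-2B less 22Rv1 the differences were 0.20 ± 0.05 in SLC3A2, 0.71 ± 0.06 in SLC1A5, 0.33 ± 0.06 in SLC7A1, -0.51 ± 0.06 in SLC38A1, -0.16 ± 0.05 in SLC38A2, 2.27 ± 0.09 in SLC43A1 and -1.17 ± 0.24 in SLC36A4. For C4-2B less DU145 they were -0.42 ± 0.07 in SLC7A5, -0.22 ± 0.06 in SLC1A5, 0.21 ± 0.06 in SLC7A1, -0.33 ± 0.06 in SLC38A1, -0.70 ± 0.05 in SLC38A2, -1.47 ± 0.14 in SLC43A1 and -0.50 ± 0.12 in SLC36A4. For 22Rv1 less DU145 they were -0.27 ± 0.05 in SLC3A2, -0.94 ± 0.06 in SLC1A5, -0.56 ± 0.23 in SLC1A3, 0.18 ± 0.06 in SLC38A1, -0.54 ± 0.05 in SLC38A2, -3.73 ± 0.15 in SLC43A1 and 0.66 ± 0.22 in SLC36A4. SLC7A5, whose 22Rv1 level was named in the choice of members, is left out of the pairs with 22Rv1; its 22Rv1 less DU145 difference, counted in the report among the 8 that passed, was -0.32 ± 0.07.

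Other named amino acid genes that rose in one line and fell in another also differed by that test. Among transporters, SLC36A1 gave -1.24 ± 0.12 for C4-2B less 22Rv1 and 1.02 ± 0.12 for 22Rv1 less DU145. SLC38A4 gave -4.10 ± 0.30 for C4-2B less DU145 and -3.23 ± 0.27 for 22Rv1 less DU145, and SLC7A11 gave -1.43 ± 0.07 and -2.05 ± 0.09 for the same pairs. SLC7A6 gave 0.37 ± 0.11 for 22Rv1 less DU145. For C4-2B less 22Rv1 the values were -0.47 ± 0.09 in ASL, 3.31 ± 0.11 in ASS1, -0.91 ± 0.07 in QARS1, 0.56 ± 0.06 in SARS1, 1.58 ± 0.08 in SESN2 and -0.92 ± 0.07 in SHMT1. For C4-2B less DU145 they were -0.46 ± 0.05 in AARS1 and -2.09 ± 0.18 in CASTOR1. For 22Rv1 less DU145 they were -0.93 ± 0.05 in AARS1, 0.93 ± 0.08 in ASL, -4.22 ± 0.12 in ASS1, -1.18 ± 0.07 in CARS1, -3.45 ± 0.18 in CASTOR1, 0.58 ± 0.07 in HARS1, 0.60 ± 0.06 in QARS1, -0.67 ± 0.06 in SARS1 and -1.28 ± 0.09 in SESN2.

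The spike-in entries of the DU145 table, which no comparison used, held 24 reads in all, 1 to 6 a library.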

How the results depend on the processing

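Every count of members past the threshold stayed within 1.5 times under each alternative run: leaving out each library gave 4 to 8 members in C4-2B, 9 in 22Rv1 and 8 to 10 in DU145. SLC3A2 and SLC1A3 passed with the same sign under all 13 alternatives in each line, as did SLC7A5 in DU145 and in C4-2B (adjusted p up to 0.0497). Leaving out each library gave 9 to 15 sensing genes in C4-2B, 13 to 19 synthesis genes in DU145 and 10 to 15 tRNA synthetases in DU145; fewer libraries enter those fits. Signs that turned belonged to small values that did not pass: SLC7A6 in C4-2B was -0.063 without control 3 and -0.013 without knockdown 2, in a range up to 0.114 when each library was left out, and SLC7A8 in DU145 was -0.184 without control 2 and -0.019 without knockdown 3, in a range up to 0.319. The SLC1A4 difference of 22Rv1 less DU145 was 0.003 with DESeq2 size factors and 0.003 in the DESeq2 test, and was 0.051 without 22Rv1 control 1, 0.038 without DU145 control 1, 0.025 without DU145 control 3 and 0.045 without DU145 knockdown 2, in a range from -0.095 when each library was left out. With library totals the differences of SLC38A2 in C4-2B less 22Rv1 (adjusted p = 0.111) and of SLC38A1 in 22Rv1 less DU145 (adjusted p = 0.0602) no longer passed and that of SLC7A1 in 22Rv1 less DU145 did (adjusted p = 0.00384). The SLC38A1 difference was lost as well without 22Rv1 control 2 (adjusted p = 0.0542), and that of SLC36A4 in 22Rv1 less DU145 without 22Rv1 control 3 (adjusted p = 0.0997) or 22Rv1 knockdown 1 (adjusted p = 0.0504). The cause was not tested. Library totals also moved the share of calls that were rises to 57% in C4-2B, 42% in 22Rv1 and 57.1% in DU145, beside 46.6%, 49.5% and 50.5% with TMM.

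Same-numbered knockdown and control libraries did not deviate together beyond 0.1 in every pair (correlations -0.04, 0.008 and 0.018 in C4-2B, 0.029, -0.014 and -0.018 in 22Rv1, and 0.128, 0.294 and 0.035 in DU145, where knockdown 3 correlated best with control 1, at 0.141). With the replicate block, 6623 genes passed in C4-2B, 11146 in 22Rv1 and 9860 in DU145, beside 6584, 11288 and 9232 without it, and 6, 9 and 10 members. Under the block SLC7A8 in C4-2B (adjusted p = 0.101) and the SLC1A3 difference of 22Rv1 less DU145 (adjusted p = 0.0544) did not pass. Depth limits the members of few reads, SLC36A4 in 22Rv1, SLC1A3 in C4-2B and DU145, and SLC43A1 in DU145.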
